A study of Rattus norvegicus with 18 samples.

Results

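Neuropeptide Y (NPY) is a peptide that cortical interneurons release beside the inhibitory transmitter GABA. It acts on a family of G protein-coupled receptors, of which Y1 (Npy1r) sits mainly on the cells that receive the peptide, Y2 (Npy2r) mainly on the terminals that release it, and Y5 (Npy5r) is often found in the same neurons as Y1. Somatostatin (Sst), vasoactive intestinal peptide (Vip), cholecystokinin (Cck) and corticotropin-releasing hormone (Crh) are further peptides made by sets of cortical interneurons, and cholecystokinin is made by many pyramidal cells as well. Such peptides are cut from larger precursors, stored in dense-core granules and released mostly when neurons fire strongly.

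These 8 genes, 3 receptors and 5 precursors, are described here in rat cortex during the first hours of focal ischemia. They were chosen by name, with their levels on these same arrays over all 6 groups already known. Their own differences are therefore given as a description, and nothing is read from the calls printed for them. They are read by 9 probes among 28634 tested, 8 genes among 24279 gene names with a tested probe. Npy1r has 2 probes and each of the others has 1.

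Total RNA from the brain cortex of male Crl:CD(SD)BR rats was hybridized to 1-colour oligonucleotide arrays. Each of the 6 groups holds 3 arrays: sham-operated rats, rats with occlusion of the middle cerebral artery (MCAO) given saline, and rats with MCAO given erythropoietin (EPO), each at 2 h and at 6 h. No genotype, transgene or Cre is named for any group, and the labels give no dose for the EPO. The study asked what ischemia does to cortical expression early on and whether EPO, a hormone of red cell formation that has been studied for protection of neurons, changes it.

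Levels are log2 signals from which the 75th percentile of the same array was subtracted, so 0 marks a probe as bright as that percentile, and levels of different probes cannot be set against each other. Differences are log2 differences between group means ± the standard error (SE) of 1 limma fit over all 18 arrays. A probe is "called" where limma's moderated test gave a Benjamini-Hochberg adjusted p under 0.05 over all 28634 probes. The labels do not say whether a rat gave more than 1 array, and precision is limited by having 3 arrays in a group. Where all arrays of a group are said to lie above or below another group, the share of all probes that did the same is 6.67% above for saline and 7.61% above for EPO against sham at 2 h. At 6 h it is 10.9% above and 21.4% below for saline, 11.8% above and 19.2% below for EPO, and for sham at 6 h against sham at 2 h it is 7.30% above.

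The arrays were not alike in quality. The slope of log signal on the amount of spiked-in viral transcripts was 0.914 to 0.941 on 6 arrays and 0.788 to 0.866 on the other 12. The 6 steep arrays were 0 of 3 in sham at 2 h, 2 of 3 in ischemia with saline at 6 h and 1 of 3 in each other group. Of them, 4 made up 1 of the 5 slides, and by the file headers that slide alone was scanned on the later of 2 days. The median probe differed by -0.13 between ischemia with saline and sham at 6 h, by 0.00 between ischemia with EPO and sham at 6 h, and by -0.07 in both comparisons with sham at 2 h. Pan-cortical markers of excitatory neurons were present as the tissue label requires, with all 9 of those on the array passing the filter on dim probes, but so were all 9 markers of striatal neurons and 6 of 7 of the hypothalamus.

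The Y1 receptor gene lay above sham without overlap at 2 h on the brighter of its 2 probes, and below it without overlap at 6 h on both. On its brighter probe (A_44_P166967) the sham arrays at 2 h read 0.43, 0.66 and 0.78, and the ischemic arrays with saline 1.15, 0.80 and 1.17. The ischemic arrays with EPO at 2 h read 1.06, 1.02 and 0.99. All 6 ischemic arrays at 2 h therefore lay above all 3 sham arrays, with differences of 0.42 ± 0.15 for saline and 0.40 ± 0.15 for EPO, neither of them called. Within slides the saline difference at 2 h varied, at 0.72, 0.14 and 0.39. The first of these set a steep saline array against a sham array that was not steep. At 6 h the order of ischemia and sham was the opposite. Sham read 1.22, 1.17 and 1.01, ischemia with saline 0.11, 0.19 and 0.08, and ischemia with EPO -0.43, -0.19 and 0.23. No ischemic array at 6 h came near a sham array, and Npy1r was lower by 2.02-fold with saline (-1.01 ± 0.15) and by 2.40-fold with EPO (-1.27 ± 0.15).

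The second Npy1r probe (A_44_P442889) gave the lower level at 6 h, while its groups overlapped at 2 h. Its sham arrays at 6 h read -0.67, -0.63 and -0.50, against -1.57, -1.31 and -1.96 with saline and -1.03, -1.65 and -1.87 with EPO. The differences were -1.02 ± 0.22 and -0.92 ± 0.22, again with no overlap. At 2 h this probe read -0.98, -0.97 and -0.81 in sham and -1.10, -0.90 and -0.59 in ischemia with saline, a difference of 0.05 ± 0.22 (95% interval -0.42 to 0.53) with overlapping groups. The EPO difference at 2 h was 0.14 ± 0.22, also with overlap. Without the steep arrays these were 0.17 ± 0.18 and 0.31 ± 0.18, of the same sign as on the brighter probe. The value of 0.42 of the brighter probe lies inside the interval, but so do differences of the opposite sign. The interval therefore cannot decide whether the probes agree at 2 h. Within slides the saline difference of the second probe was -0.13, 0.07 and 0.22.

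The Y5 receptor gene (Npy5r) was lower at both times, slightly at 2 h and clearly at 6 h. At 2 h the sham arrays read -1.38, -1.03 and -1.09, ischemia with saline -1.45, -1.50 and -1.38, and ischemia with EPO -1.56, -1.50 and -1.35. The differences were -0.28 ± 0.11 and -0.30 ± 0.11, and the ischemic arrays touched the lowest sham array in both cases. At 6 h sham read -1.03, -1.04 and -0.93, saline -1.82, -2.03 and -2.04, and EPO -2.31, -2.50 and -2.13. The groups were wide apart, with Npy5r lower by 1.95-fold with saline (-0.96 ± 0.11) and by 2.48-fold with EPO (-1.31 ± 0.11).

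**Figure D1:**
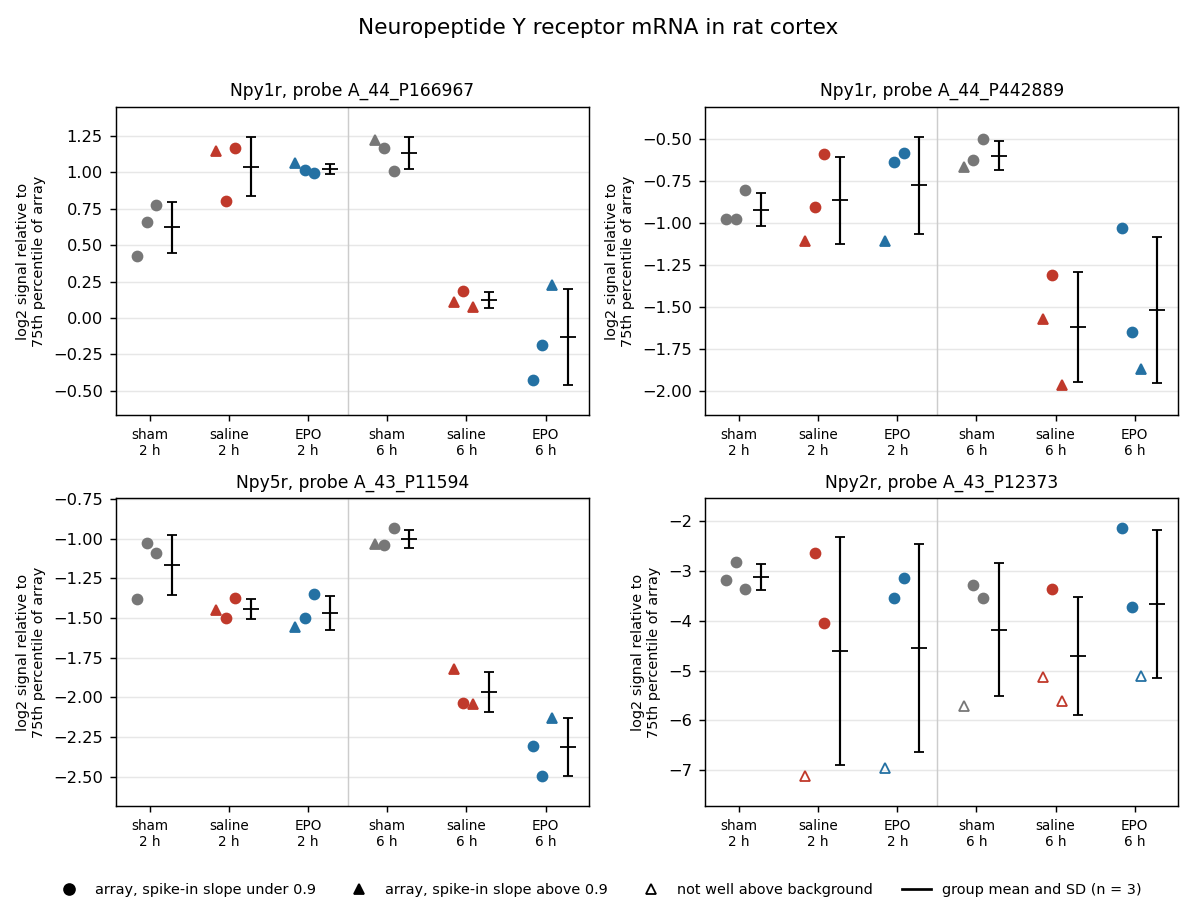
Level of each probe of the Y1, Y5 and Y2 receptor genes on every array, as log2 signal minus the array's 75th percentile, by group. Circles are arrays of spike-in slope under 0.9, triangles those above 0.9, open symbols arrays where the probe was not well above background, and bars the group mean and SD (n = 3). Both Npy1r probes and Npy5r are lower in all 6 ischemic arrays at 6 h than in any sham array at 6 h, while Npy2r is open on all 6 steep arrays.

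Npy1r and Npy5r are neighbours that are read in opposite directions, and no other gene of the annotation starts between them. Their upstream stretches are shown because these were the members that differed together from sham at 6 h. In RefSeq's GRCr8 rat assembly the Npy1r stretch is chr16:27813388-27813637 on the minus strand and the Npy5r stretch chr16:27821805-27822054 on the plus strand, with 8167 bases between the stretches. Each holds the 250 bases before the gene's start, 5′ to 3′, and capitals mark the half-site of the cAMP response element (TGACG, searched on both strands, here as CGTCA).

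Npy1r: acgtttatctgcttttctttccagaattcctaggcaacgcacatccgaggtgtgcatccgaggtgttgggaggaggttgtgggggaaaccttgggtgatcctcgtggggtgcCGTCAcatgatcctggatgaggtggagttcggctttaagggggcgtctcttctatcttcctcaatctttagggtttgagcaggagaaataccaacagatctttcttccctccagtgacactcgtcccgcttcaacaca
Npy5r: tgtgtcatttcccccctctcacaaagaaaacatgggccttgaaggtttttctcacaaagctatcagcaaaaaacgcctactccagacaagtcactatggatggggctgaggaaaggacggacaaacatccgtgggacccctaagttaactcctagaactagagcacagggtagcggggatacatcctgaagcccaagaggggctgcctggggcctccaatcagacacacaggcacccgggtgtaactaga

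The cAMP response element binds CREB, a transcription factor that neuronal activity switches on. Npy1r held 1 half-site, 138 bases before its start, and the Npy5r window held none. Neither window held the full element (TGACGTCA, which contains the half-site on both strands) or the AP-1 motif TGANTCA, on either strand. Over windows of 300 bases (250 before the start and 50 after it) of 33469 rat promoters, 21.2% held the half-site, 1.83% the full element and 7.33% the AP-1 motif, so a half-site is common. A match here is a string of letters, not a measured site.

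With saline at 6 h, the difference of the brighter Npy1r probe and of Npy5r was of similar size within slides and across them. On the slide with 1 sham and 1 saline array of shallow slope, saline differed from sham by -0.98 for the brighter Npy1r probe and by -0.99 for Npy5r. On the slide whose 4 arrays were all steep the same differences were -1.15 and -1.01. Without the 6 steep arrays, which leaves 1 saline array assumed to vary like the others, they were -0.90 ± 0.20 and -1.04 ± 0.17 for saline, and -1.40 ± 0.16 and -1.42 ± 0.14 for EPO. Over 13 other ways of processing, the saline difference ran from -1.07 to -0.90 for Npy1r and from -1.04 to -0.73 for Npy5r. The sign was the same in all 13. The second Npy1r probe was less even within slides, with a saline difference of -0.68 between the arrays of shallow slope and -1.30 on the steep slide.

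Between the times, the ischemic difference with saline moved by -1.43 ± 0.21 for the brighter Npy1r probe, by -1.07 ± 0.31 for the other and by -0.69 ± 0.15 for Npy5r. Part of the first value lies in the sham groups themselves: sham at 6 h was above sham at 2 h by 0.51 ± 0.15 on that probe, with no overlap, and by 0.16 ± 0.11 for Npy5r. On the second Npy1r probe sham at 6 h was also above sham at 2 h, by 0.32 ± 0.22 without overlap. On both Npy1r probes this step between the sham group means was larger than the difference of saline from sham at 2 h (0.42 and 0.05). The sham groups lie largely on different slides. On the slide that holds both, the step was 0.24 on the brighter probe and 0.30 on the other. The difference of saline from sham at 2 h on that slide was 0.39 and 0.22, so the order held there for the second probe only.

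The Y2 receptor gene (Npy2r) could not be followed. Its probe was well above background on all 12 arrays of shallow slope and on 0 of the 6 steep ones, where it read between -7.12 and -5.11. The shallow arrays read between -4.05 and -2.14. The SE of a difference between groups was 1.23, larger than every difference from sham except those at 2 h (-1.48 for saline and -1.42 for EPO), and without the steep arrays these 2 were -0.22 ± 0.53 for both. The level of this probe moved with the quality of the array, and no statement on ischemia can be made from it.

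The NPY precursor itself was higher than sham at 6 h, where Npy1r and Npy5r were lower, and by a smaller amount. Sham arrays read 4.19, 4.41 and 4.53 at 2 h and 4.51, 4.30 and 4.34 at 6 h. Ischemia with saline read 4.60, 4.58 and 4.56 at 2 h and 4.79, 4.64 and 4.83 at 6 h, and ischemia with EPO 4.33, 4.64 and 4.61 and then 4.89, 4.79 and 4.56. At 6 h all 6 ischemic arrays were above all 3 sham arrays, and at 2 h the saline arrays were above sham while the EPO arrays overlapped it. The differences at 6 h were 0.37 ± 0.11 with saline (1.30-fold) and 0.36 ± 0.11 with EPO, and at 2 h 0.20 ± 0.11 and 0.15 ± 0.11.

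The Npy probe is printed as 10 spots, so its reading within an array is precise. The spots of 1 array had a median SD of 0.07, against 0.14 between arrays of a group, so the spread between arrays exceeds the reading error. Over 13 other ways of processing and the leaving out of each array, the difference at 6 h with saline stayed between 0.32 and 0.44. Within the 2 slides that hold both groups, saline exceeded sham by 0.34 and 0.32. For EPO the same slides gave 0.49 and 0.05.

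Somatostatin, the marker peptide of another large interneuron class, did not separate the groups at 2 h and barely at 6 h. At 6 h sham read 4.95, 4.67 and 4.93, saline 5.0, 5.01 and 5.12, and EPO 4.94, 4.92 and 5.02. The saline arrays lay just above sham, by 0.19 ± 0.12, and the EPO arrays overlapped it, at 0.11 ± 0.12. At 2 h the differences were 0.07 ± 0.12 and 0.09 ± 0.12 with overlapping groups.

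Vasoactive intestinal peptide, made by interneurons that mainly inhibit other interneurons, was level in ischemia with saline and lowest with EPO at 6 h. Sham at 6 h read 3.94, 3.89 and 3.94, saline 4.11, 3.90 and 3.91, and EPO 3.47, 3.77 and 3.88. The saline difference was 0.05 ± 0.11 and the EPO difference -0.22 ± 0.11, and the EPO arrays lay below both other groups. At 2 h the differences were 0.08 ± 0.11 and 0.12 ± 0.11, and the groups overlapped.

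Both peptide genes are known for a response to cAMP, so the stretch around their annotated start is shown for comparison with Npy1r. The Sst stretch is chr11:90461486-90461565 and runs from 60 bases before the start to 20 after it. The Vip stretch is chr1:44470350-44470429, from 130 to 51 bases before the start. Both are on the plus strand of GRCr8 from RefSeq, and capitals mark the full element in Sst and the half-site in Vip.

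Sst: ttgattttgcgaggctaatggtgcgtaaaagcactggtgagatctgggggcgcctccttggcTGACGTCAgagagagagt
Vip: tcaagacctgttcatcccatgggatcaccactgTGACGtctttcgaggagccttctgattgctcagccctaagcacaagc

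Among the 6 members with a promoter entry, the full element stood in Sst alone, 3 to 10 bases after the annotated start, and half-sites outside it in Npy1r and Vip. Npy2r held an AP-1 motif 148 bases before its start, and Npy and Npy5r held none of these motifs.

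Cholecystokinin and corticotropin-releasing hormone were slightly higher in ischemia at 2 h. For Cck, sham at 2 h read 4.75, 4.82 and 4.84, saline 5.14, 5.06 and 4.96, and EPO 5.29, 4.94 and 4.93. All ischemic arrays were above sham, by 0.25 ± 0.11 in each treatment, but this probe followed the spike-in slope (the highest reading was on a steep array), and without the steep arrays the values were 0.21 ± 0.09 and 0.13 ± 0.09. At 6 h Cck differed from sham by 0.04 ± 0.11 with saline and 0.03 ± 0.11 with EPO.

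For Crh, the releaser of stress hormones that the cortex makes in scattered interneurons, sham at 2 h read -1.12, -0.83 and -0.68. Saline read -0.88, -0.54 and -0.63, and EPO -0.50, -0.43 and -0.60. The EPO arrays were above sham by 0.37 ± 0.11 with no overlap, and the saline arrays by 0.20 ± 0.11 with overlap. At 6 h the differences were 0.16 ± 0.11 and 0.14 ± 0.11, and the ischemic arrays of both treatments lay above sham, whose arrays read -1.13, -0.97 and -1.02.

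**Figure D2:**
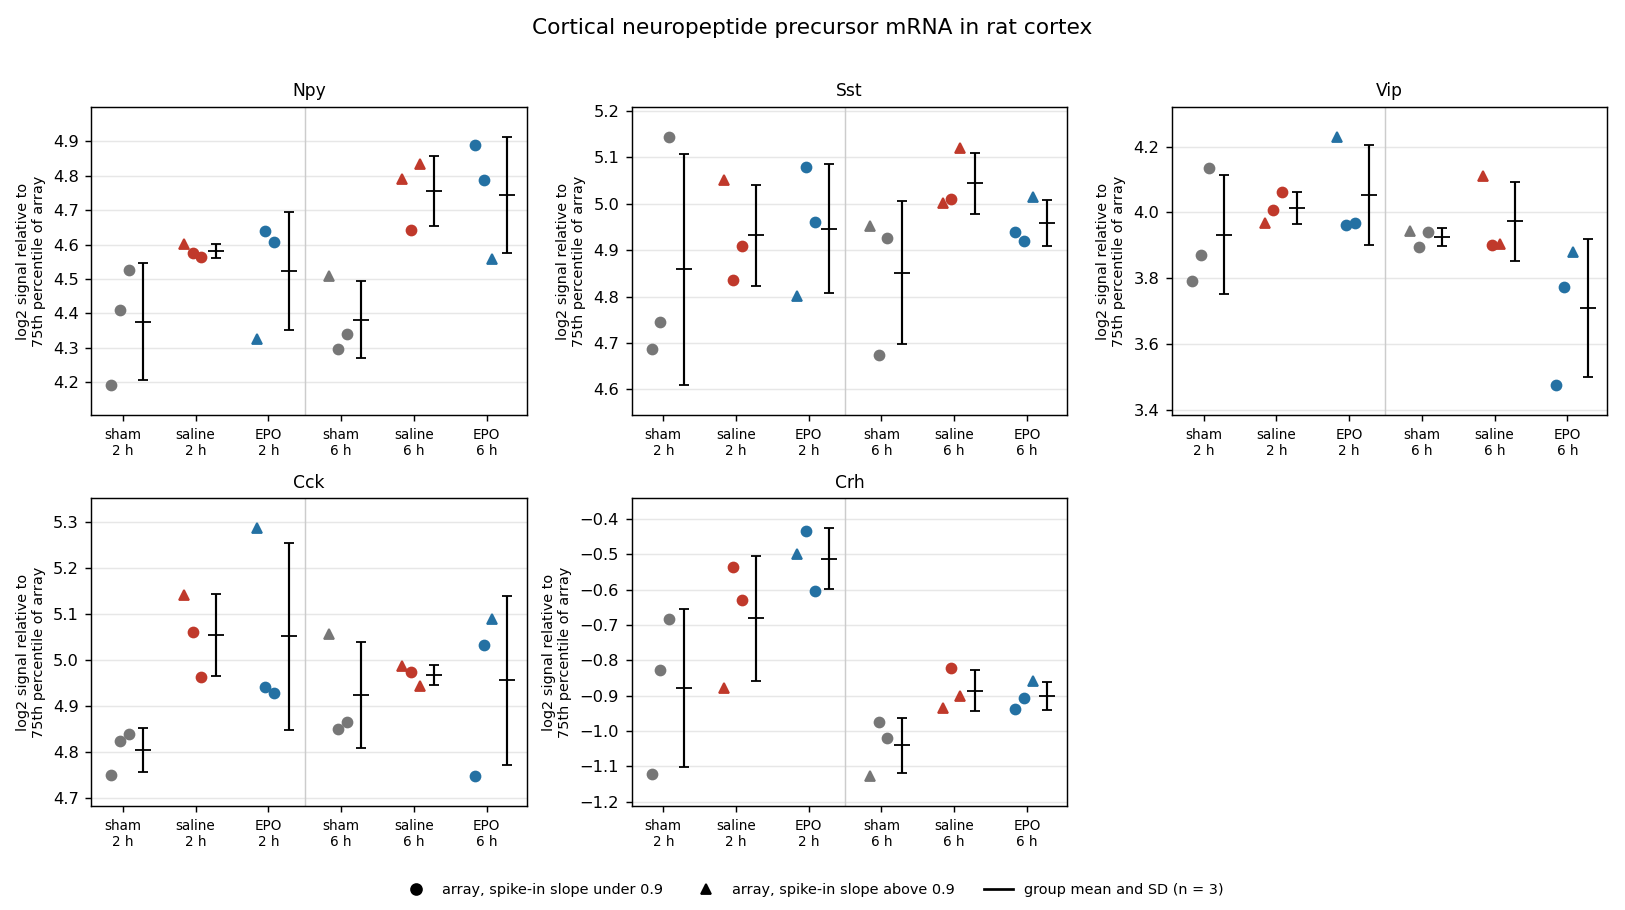
Level of the 5 peptide precursor genes on every array, as log2 signal minus the array's 75th percentile, by group; symbols and bars are as for the receptors, and each panel has its own axis. Npy is higher in all 6 ischemic arrays at 6 h than in sham at 6 h, while the groups of Sst, Vip and Cck at 6 h differ from sham by less than 0.3.

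Counted as calls, 0 of the 8 genes were called at 2 h in either ischemic group (1.24% of all probes with saline and 1.33% with EPO). At 6 h Npy was called higher and Npy1r and Npy5r lower, 3 of 8, with 11.0% of all probes called with saline and 16.1% with EPO. Both Npy1r probes were called at 6 h in each. In the ischemia by time interaction Npy1r, through its brighter probe, and Npy5r were called (1.43% of probes). Because the members were picked with these values in view, nothing is read from these shares. Saline and EPO groups are set against the same sham arrays, so their agreement is no second observation.

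**Figure D3:**
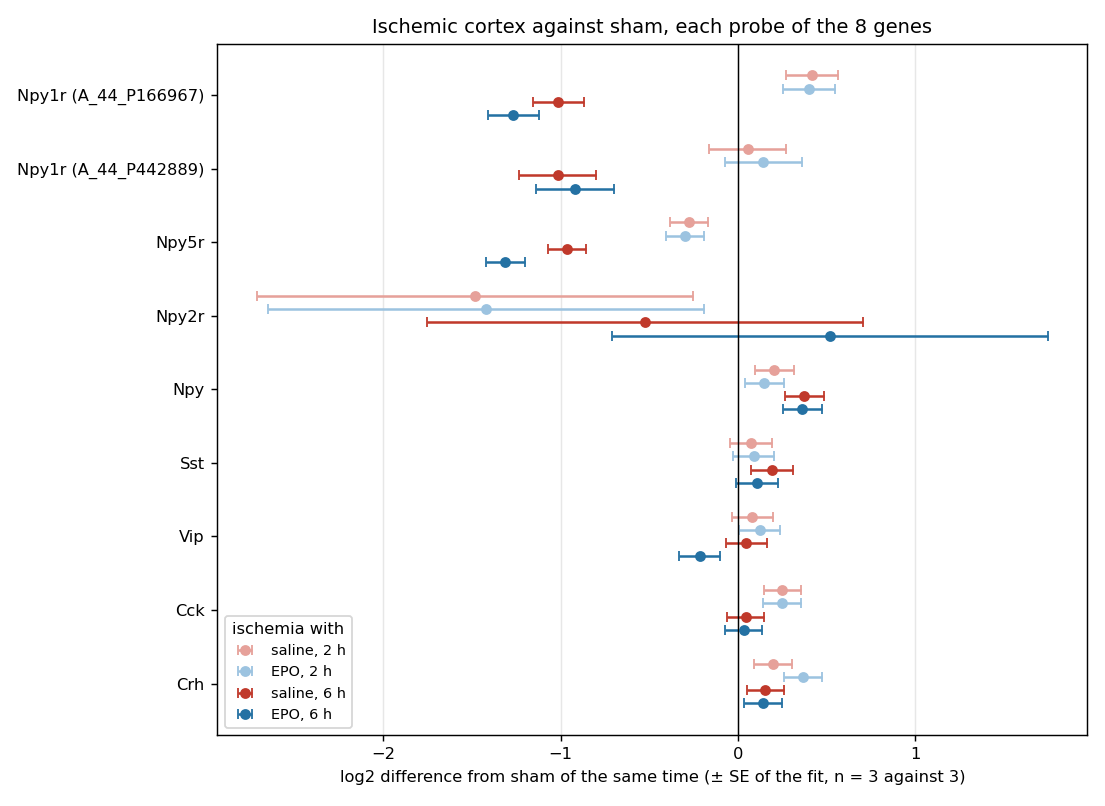
Log2 difference from sham of the same time for each probe, ischemia with saline in red and with EPO in blue, pale at 2 h and dark at 6 h; bars are the SE of the fit (n = 3 against 3). Both Npy1r probes and Npy5r lie near -1 at 6 h, Npy near 0.4, and the other precursors within 0.4 of 0.

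Between EPO and saline in ischemia, limma called 0 of the 28634 probes at 2 h (0.00%, with an unadjusted p under 0.05 for 381) and 0 at 6 h (0.00%, with 1184), members included. At 2 h the differences of the members above background on all arrays lay between -0.06 for Npy and 0.17 for Crh. At 6 h Npy5r was lower with EPO by -0.35 ± 0.11 (95% interval -0.58 to -0.12), and all 3 EPO arrays lay below all 3 saline arrays, as 3.48% of probes did. On the 3 slides that hold both groups this difference was -0.49, -0.47 and -0.09. The first was against a steep saline array and the last on the slide of steep arrays. Without the steep arrays the Npy5r difference was -0.37 ± 0.17.

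Vip was also lower with EPO at 6 h, by -0.26 ± 0.11 (95% interval -0.51 to -0.02). Its groups barely missed overlap, with the highest EPO array at 3.88 and the lowest saline array at 3.90. Within slides this Vip difference was -0.64, -0.13 and -0.03, the first of them against a steep saline array. The brighter Npy1r probe differed by -0.25 ± 0.15 (-0.57 to 0.06) and the other by 0.10 ± 0.22 (-0.37 to 0.57), each with overlapping groups. Npy differed by -0.01 ± 0.11 (-0.25 to 0.23) and Sst by -0.09 ± 0.12 (-0.34 to 0.17). A change of Npy by EPO of more than 0.25 in either direction therefore lies outside the 95% interval at 6 h, while for the weaker Npy1r probe changes of up to 0.57 lie inside it. Of the other neuropeptide genes described further on, 0 of 79 were called between EPO and saline at either time. In each list the gene of smallest p at 6 h was also short of the threshold, namely Scg2 (0.36 ± 0.14), Nppa (0.17 ± 0.07), Cckbr (0.29 ± 0.13) and Galr2 (0.40 ± 0.28), which read higher with EPO, and Dpp4 (-0.24 ± 0.13), which read lower.

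The genes with the most similar course over the 18 arrays, after each probe was regressed on the spike-in slope, were sought among 12377 gene symbols for the members whose group means spanned at least 0.5. For Npy1r they were Cdh10, a cadherin of neuronal contacts, at Pearson r = 0.97, Dhrs7b at 0.96 and Lrrc4c, a synaptic adhesion protein, at 0.95. Npy5r followed Npy1r at 0.87 and had as its nearest Slitrk5, another synaptic adhesion protein, Rwdd3 and Cog8, each at 0.96. Npy ran against both, at -0.66 with Npy1r and -0.70 with Npy5r. For Crh the nearest were Zfand2b at 0.89, Tceal8 at 0.88 and Cope at 0.87, and for Npy2r, which was below background on the steep arrays, Myh8 and Sh2d4b at 0.93 and Zbtb33 at 0.92. These values describe arrays that share groups, slides and depth of signal.

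Cortex is a mixture of cell types, and fewer cells of a type and less RNA per cell cannot be told apart in these samples. The 12 interneuron markers with a tested probe had a mean level of -0.00 to 0.27 on the sham arrays at 6 h, 0.08 to 0.18 with saline and 0.12 to 0.40 with EPO. Of these 12, 1 fell and 0 rose with saline (Kcnc1, a potassium channel of fast-spiking cells, -0.32 ± 0.08), and among all genes 6.40% were called lower and 4.83% higher. The GABA-making enzyme gene Gad1 differed by 0.02 ± 0.11 and the GABA vesicle transporter gene Slc32a1 by 0.23 ± 0.10, neither past the threshold. Among 9 markers of excitatory cortical neurons, 1 fell, the transcription factor gene Neurod6, by 0.81 ± 0.16 on the log2 scale at 6 h with saline (limma adjusted p = 0.0055). At 2 h with saline Neurod6 differed by 0.64, and 5 of the 9 markers read above sham then, against 4 of the 9 at 6 h. The mean of the excitatory markers was -0.04 to 0.11 in sham and -0.15 to -0.06 with saline. These counts, 1 of 12 and 1 of 9, are near the share over all genes.

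Markers of other cell types also moved beside the receptors. Of 7 endothelial markers 4 fell and 0 rose at 6 h with saline, with a median of -0.52: the transporter gene Slco1a4 by 1.16 ± 0.13, the receptor gene Tek by 1.02 ± 0.19, and the tight junction genes Ocln and Cldn5 by 0.91 ± 0.16 and 0.52 ± 0.13 on the log2 scale. With EPO the same 4 fell, and in both comparisons 3 of the 7 read above sham. Among all genes 6.40% were called lower with saline and 9.89% with EPO. The endothelial mean was -1.42 to -1.16 in sham, -1.86 to -1.65 with saline and -1.64 to -1.39 with EPO. Of 8 microglial markers P2ry12 and Tmem119 fell with saline, by 0.99 ± 0.21 and 0.66 ± 0.15, and Aif1 rose. Of the 8, 5 read above sham, with a median of 0.12 beside -0.13 over all genes. The mean over the 8 was 0.72 to 1.02 in sham and 0.77 to 0.94 with saline. All 9 oligodendrocyte markers read above sham at 6 h with saline, with a median of 0.27 and 0 called. With EPO 8 of the 9 did, and Cnp was called higher. The part of neurons, vessels, microglia or oligodendrocytes in the receptor values was not tested.

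The other genes of the neuropeptide system, lists of 91 genes of which 79 had a tested probe, were tested in the same fit. With saline at 6 h 14 rose and 5 fell, against 4.83% of all genes called higher and 6.40% called lower. With EPO at 6 h 22 rose and 8 fell (6.48% and 9.89% of all genes), against the same sham arrays. At 2 h with saline 2 rose and 0 fell (0.906% and 0.354% of all genes). With the 8 genes added, the calls with saline at 6 h were 22, and they fell to 2 without the steep arrays and to between 11 and 15 without any 1 of the arrays compared. The lists were also written with earlier results known.

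Of the remaining NPY family, the gut peptides Pyy and Ppy and the NPY-cleaving peptidase gene Dpp4 had a tested probe, and 0 of 3 were called at 6 h with saline (Dpp4 -0.25 ± 0.13, Ppy -0.99 ± 1.02). The median over the 3 was -0.36, beside -0.13 over all genes. Ppy, like Npy2r, was below background on several of the steep arrays.

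Of 29 other neuropeptide precursors, 7 rose and 0 fell at 6 h with saline, with a median difference of 0.28 against -0.13 over all genes. Thyrotropin-releasing hormone (Trh), best known from the hypothalamus, read -3.95, -3.45 and -2.37 in sham, -0.83, -1.37 and -1.23 with saline and -1.02, -1.13 and -1.27 with EPO. It rose by 2.11 ± 0.32 with saline (4.33-fold, limma adjusted p = 0.0011) and all 6 ischemic arrays lay above all 3 sham arrays. Adrenomedullin (Adm), a vasodilator peptide, rose by 2.12 ± 0.16 (limma adjusted p = 3.8e-06), from -0.67 to -0.29 in sham to 1.55 to 1.83 with saline.

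The smaller rises at 6 h were of Edn1, the vasoconstrictor endothelin (0.73 ± 0.15), Calcb, a calcitonin gene-related peptide (1.08 ± 0.31), Gal, galanin (0.60 ± 0.16), Pdyn, the dynorphin precursor (0.40 ± 0.11), and Nppa, a natriuretic peptide (0.34 ± 0.07). Without the steep arrays Trh was 1.54 ± 0.46 and no longer past the threshold, while Adm was 2.36 ± 0.28 and past it. Of 6 other genes used as hypothalamic markers, 4 read above sham beside Trh and 0 were called. Among these, Avp read higher by 1.58 ± 0.59 and Oxt by 1.43 ± 0.73. Over 6 hypothalamic markers the mean level was -2.10 to -1.32 in sham and -1.28 to -0.86 with saline. In sham at 2 h that mean was -1.33 to -0.73, and Trh differed by -0.97 ± 0.32 between sham at 6 h and sham at 2 h. The 9 striatal markers, of which 2 rose (Ppp1r1b 0.55 ± 0.12 and Adora2a 0.84 ± 0.24), had a mean of -0.80 to -0.19 in sham and -0.06 to 0.05 with saline, and Pdyn is also abundant in striatum. Their part in the precursor values was not tested.

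Among 12 receptors and binding proteins of Sst, Vip, Cck and Crh, 2 rose and 0 fell at 6 h with saline. The VIP receptor gene Vipr1 read -2.78, -2.99 and -3.04 in sham and -2.13, -2.02 and -1.68 with saline, a rise of 0.99 ± 0.20 (limma adjusted p = 0.0059) that without the steep arrays was 0.99 ± 0.25 and not past the threshold. Its peptide Vip differed by 0.05 in the same arrays. The somatostatin receptor gene Sstr2 rose by 0.40 ± 0.12, called in 6 of 13 other ways of processing. At 2 h the brain cholecystokinin receptor gene Cckbr was the 1 member of this list called: sham read 0.52, 0.16 and 0.25 and saline 1.18, 0.88 and 0.96, a rise of 0.69 ± 0.13 (limma adjusted p = 0.015).

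Receptors of other peptides gave 1 rise and 2 falls among 14 at 6 h with saline. The orexin receptor gene Hcrtr1 rose by 1.12 ± 0.22, the nociceptin receptor gene Oprl1 fell by 0.52 ± 0.10 and the tachykinin receptor gene Tacr2 fell by 0.42 ± 0.08 on the log2 scale. Oprl1 has a second probe, which differed by -0.60. Under quantile normalization the Tacr2 difference was -0.27 ± 0.28 and not past the threshold.

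Genes that cut, pack and release peptides moved in both directions, 4 up and 3 down among 21 at 6 h with saline. The convertase gene Pcsk1 rose at 2 h by 0.47 ± 0.07 (limma adjusted p = 0.0027), from -1.34, -1.15 and -1.13 in sham to -0.86, -0.71 and -0.63 with saline. Without the steep arrays 0 of the 87 genes were called at 2 h with saline, Pcsk1 and Cckbr included. At 6 h the convertase gene Pcsk2 fell by 0.36 ± 0.07, and the granule priming genes Cadps and Cadps2 fell by 0.27 ± 0.07 and 0.34 ± 0.09. Pcsk1, Pcsk5, Pcsk6 and the secretogranin gene Scg2 rose by 0.23 to 0.46.

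**Figure D4:**
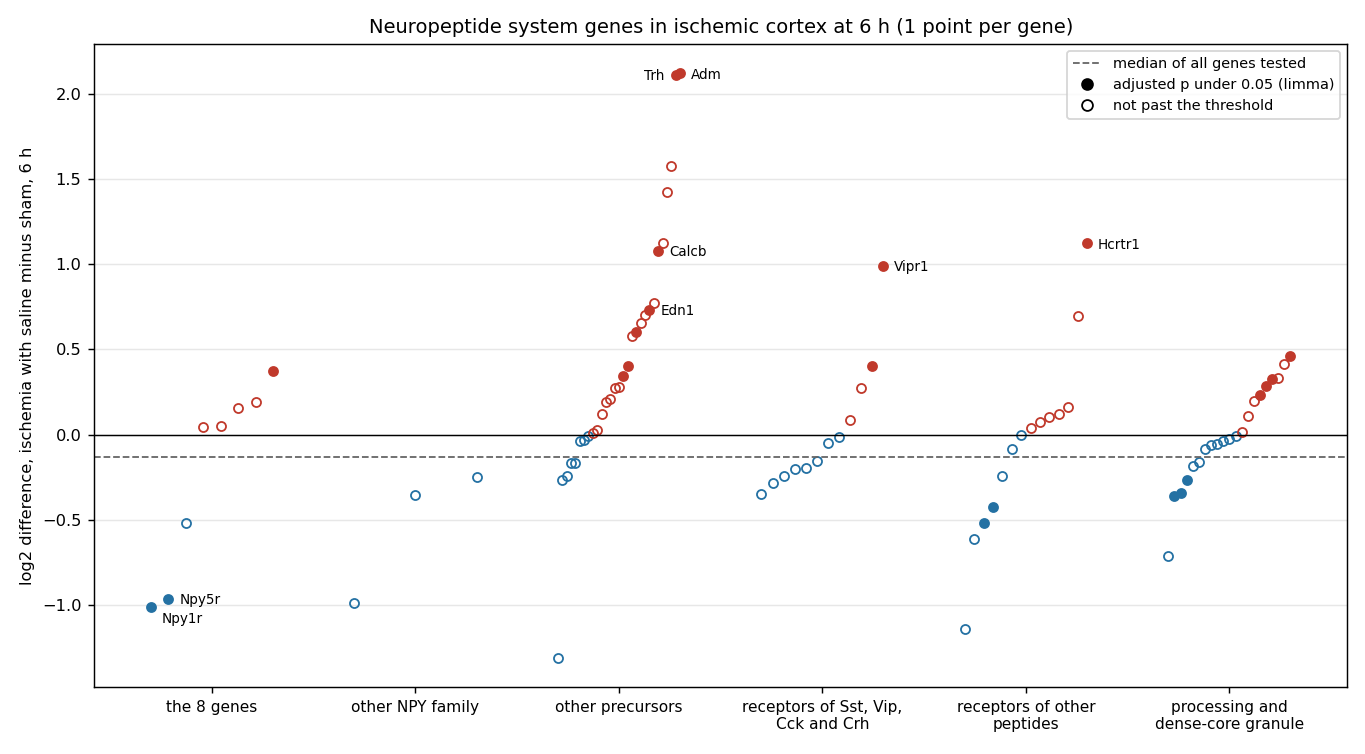
Log2 difference between ischemia with saline and sham at 6 h for each gene of 6 lists, 1 point per gene through its brightest tested probe, red above and blue below 0; filled points had a limma adjusted p under 0.05. Npy1r and Npy5r lie near -1 at the left, Trh and Adm near 2.1, and the dashed line marks the median of all genes at -0.13.

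The ischemic change of 5 further genes differed between the times by the interaction test, set beside 0.861% of genes called higher and 0.667% called lower in it. Trh, Adm, Vipr1 and Hcrtr1 went up from 2 h to 6 h relative to sham, by 2.58 ± 0.45, 1.45 ± 0.23, 1.65 ± 0.28 and 1.42 ± 0.32. Cckbr went down by 0.94 ± 0.18, as Npy1r and Npy5r did. For Vipr1 and Trh the sham groups differed too, by -0.81 ± 0.20 and -0.97 ± 0.32 between 6 h and 2 h, neither called. None of the interaction calls of these 5 genes remained without the steep arrays, where the values were 1.93 ± 0.57, 1.69 ± 0.35, 1.72 ± 0.31, 1.38 ± 0.35 and -0.91 ± 0.20 in the order given. The values of Npy1r and Npy5r were then -1.27 ± 0.25 and -0.77 ± 0.21, and they too were not past the threshold.

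**Figure D5:**
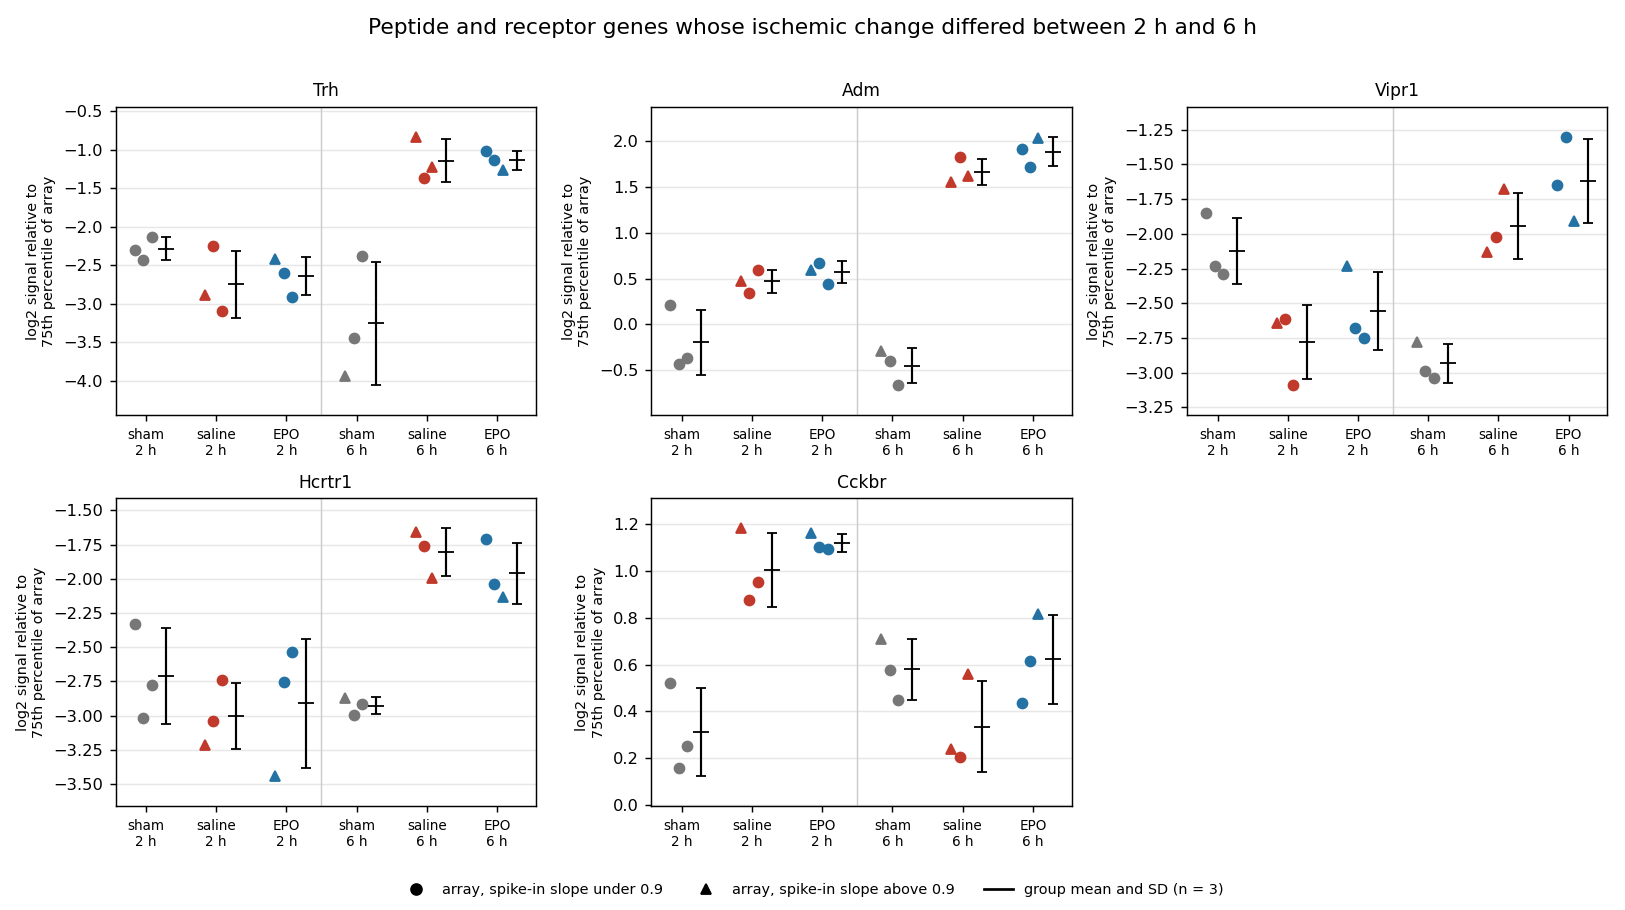
Level of Trh, Adm, Vipr1, Hcrtr1 and Cckbr on every array, as log2 signal minus the array's 75th percentile, by group; symbols and bars are as for the receptors. The first 4 are higher in ischemia than in sham at 6 h, while Cckbr is higher in ischemia at 2 h, where the 6 ischemic arrays lie between 0.88 and 1.18.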

How the data were processed

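The deposited files are the scanner output of 18 1-colour arrays, written by Agilent Feature Extraction 9.1.1.1 per the file headers and the submitters' processing notes. Their processed signal is a background-subtracted intensity per spot, per the file headers. The authors' deposited table holds log2 values, and it was checked against the raw files: the median difference was under rounding, so it is unscaled between arrays, and it differed by up to 0.336 where outlier spots were left out here. The direction of every comparison was taken from the labels.

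Spots of a probe were averaged as log2 without outlier spots (345 probes that lost all spots on an array were left out), and each array's 75th percentile over non-control spots was subtracted. Probes well above background on all arrays of at least 1 group were tested, 28634 of 41012. They were named by accession (8427), symbol (4660) or synonym (3078) in the rat annotation, and 12469 kept the name in the file. No member probe was saturated. The brightest tested probe stands for a gene in counts of genes.

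The 6 group means entered 1 linear model (limma version 3.58.1, R version 4.3.3, statmod 1.5.0), with 12 residual degrees of freedom and Benjamini-Hochberg adjustment over all probes tested, threshold 0.05, after a test on simulated data. The members, the lists and the tests were chosen with earlier results of these data known. Named are every member, in each other list up to 4 called genes of smallest p per comparison (up to 2 where none was called, of which some are not printed), and the 3 genes most alike each member whose group means span at least 0.5. Calcb, Gal, Pdyn, Avp, Oxt, Pcsk5, Penk, Tac1, Pnoc, Kng1, Nmb, Vgf and the single marker genes were named after their values were seen. Replicate numbers were checked for pairing: only EPO and saline at 2 h correlated above 0.1 in every pair (0.887, 0.654 and 0.635). In both of these groups the steep array was replicate 1 (slopes 0.938 and 0.941). Its part in the correlations was not tested, and the labels name no pairing.

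Alternatives varied background correction, normalization, the dim filter, slides, replicate numbers, the spike-in slope, the variance model and each array in turn. The percentile over probes in place of spots was chosen after seeing the data. Promoters are RefSeq's, matched by symbol for 6 of 8 members. Those of Cck and Crh are not used here.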

Additional observations from a re-analysis of the deposited data

Results flagged for a closer look

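The change with ischemia differed between 2 h and 6 h for 5 genes outside the 8 by limma's interaction test (value at 6 h minus value at 2 h, saline against sham, 3 arrays in each of the 4 groups). Adm moved by 1.45 ± 0.23 (limma adjusted p = 0.0059), Vipr1 by 1.65 ± 0.28 (0.0099), Trh by 2.58 ± 0.45 (0.013) and Hcrtr1 by 1.42 ± 0.32 (0.046). Cckbr moved by -0.94 ± 0.18 (limma adjusted p = 0.023). As a description with no test, since both were chosen with these values known, the same quantity was -1.43 ± 0.21 for the brighter Npy1r probe and -0.69 ± 0.15 for Npy5r. Steep arrays numbered 0 in sham and 1 in saline at 2 h, and 1 in sham and 2 in saline at 6 h, and their part in these differences was not tested beyond the fits that leave them out or carry the slope.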

How the results depend on the processing

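Nothing is read from calls of the 8 genes, which the counts below include. Over all 6 neuropeptide lists with the 8 genes (87 tested), 22 genes were called with saline at 6 h. This count was 7 on the authors' unscaled values, 12 without the filter on dim probes, 7 in a fit of only the groups compared, 2 without the steep arrays, and 11 to 15 when 1 array was left out, with sham replicates 1, 2 and 3 and saline replicates 1 and 3 each lowering it by over 1.5 times. With EPO at 6 h the 33 calls became 17 on unscaled values, 21 without the steep arrays and 13 in the fit of its own groups (23 to 33 by leaving 1 array out). At 2 h the 2 calls with saline became 1, 0 and 0 on unscaled values, without the steep arrays and in the fit of its own groups (1 to 3 by leaving 1 array out, with 1 without sham replicate 2 or 3 or saline replicate 1 or 3), and the 3 with EPO became 1, 1 and 0. The 7 interaction calls became 0 without the steep arrays and 4 in the fit of its own groups (4 to 6 by leaving 1 array out, with 4 without sham 2 h replicate 3, sham 6 h replicate 1 or 2, saline 2 h replicate 1 or 3, or saline 6 h replicate 2). Between the shams 0 calls became 1 under quantile normalization, with the slope as a covariate and without sham 6 h replicate 3 (0 to 1).

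A replicate block gave 2, 19, 4 and 29 calls for saline and EPO at 2 h and 6 h in the order saline 2 h, saline 6 h, EPO 2 h and EPO 6 h, 0 for EPO against saline and 5 for the interaction. The differences of Npy, Npy1r and Npy5r from sham at 6 h kept their sign under every alternative run. Over all probes at 6 h with saline, 1372 were higher and 1792 lower, against 1462 and 1140 under quantile normalization and 849 and 416 on unscaled values. Signal over background limits Npy2r and Ppy. The causes of these shifts were not tested, apart from the smaller number of arrays in the fits that leave some out.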

Other observations

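With EPO at 6 h, 22 of the 79 other neuropeptide genes were higher than in sham and 8 lower, set beside 6.48% and 9.89% of all genes tested. These arrays share the sham group with the saline comparison, and the difference between EPO and saline itself was called for 0 genes. Beyond the genes already described, the opioid precursor Penk rose by 0.98 ± 0.23, the tachykinin precursor Tac1 by 0.94 ± 0.26, the nociceptin precursor Pnoc by 0.32 ± 0.09 and the kininogen Kng1 by 1.54 ± 0.43, while Nmb fell by 0.29 ± 0.07 on the log2 scale. With saline Penk and Tac1 differed by 0.70 ± 0.23 and 0.77 ± 0.26, which did not pass the threshold, and a dim second probe of Penk, below background on some arrays, differed by -0.39 ± 0.77. Penk and Tac1 are abundant in striatal neurons, and 5 of 9 striatal markers rose in the same arrays (Drd2 by 0.70 ± 0.20). The part of striatal tissue in these values was not tested.

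Among receptors, Avpr1a for vasopressin rose by 0.99 ± 0.27 and the CRH-binding protein Crhbp by 0.37 ± 0.11 with EPO, and the somatostatin receptor Sstr1 fell by 0.28 ± 0.09. Crhbp and Sstr1 were called in 7 and 3 of 13 other ways of processing. The peptidase gene Dpp4, which trims NPY, fell by 0.50 ± 0.13 on its brighter probe, while its second probe differed by -0.07 ± 0.15. The granule peptides Scg2 and Vgf rose by 0.82 ± 0.14 and 0.57 ± 0.14, and the convertase genes Pcsk1 and Furin by 0.40 ± 0.07 and 0.37 ± 0.12. Of the 12 interneuron markers 2 fell with EPO, Kcnc1 and Pvalb (by 0.72 ± 0.13), and 0 rose, while 8 of the 12 read above sham and the median was 0.15. With saline Pvalb differed by -0.41, short of the threshold.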
